A study of Homo sapiens with 12 samples.

Results

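Noncoding snoRNA host genes were followed through the ribosome fractions of MCF10A cells. Members were chosen by name, as 10 long noncoding genes that carry small nucleolar RNAs (snoRNAs) in their introns, and 9 of them were measured among 56632 genes: GAS5, ZFAS1, SNHG1, SNHG5, SNHG6, SNHG12, SNHG14, SNHG16 and EPB41L4A-AS1. The other named gene, SNHG8, was not analysed here. MCF10A is a non-tumorigenic human mammary epithelial line, and all 12 libraries came from this line, grown with horse serum, insulin, EGF, hydrocortisone and cholera toxin. The genotypes were wild type (WT) and CBFB knockout (CBFB_KO). CBFB is the beta subunit of core binding factor and the partner of the RUNX proteins. The knockout was made with CRISPR-Cas9 and selected from single-cell colonies, and how many colonies gave these libraries is not given in the sources used here. Both genotypes were treated with 100 µg/ml cycloheximide for 30 min, which holds ribosomes on RNA, and lysates were run on sucrose gradients of 10 to 50%. RNA was sequenced from ribosome-free (free) fractions, from those with single ribosomes (mono) and from the pooled ones with several ribosomes (poly), with 2 replicates for each of the 6 conditions. The labels do not say whether the replicates were separate cultures, so p-values measure only the spread between these libraries.

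A snoRNA host gene is transcribed and spliced, its introns release snoRNAs, and the spliced exons are left as a noncoding RNA. Many snoRNAs, though not all, guide the chemical modification of ribosomal RNA. Several of the spliced host RNAs begin with a 5′ terminal oligopyrimidine (TOP) tract, the start that also marks ribosomal protein mRNAs. They reach the cytoplasm, carry only short reading frames, and some, GAS5 being the best studied, are known targets of nonsense-mediated decay, a pathway that needs translation. The comparison of fractions asks where such RNAs lie on the gradient, and the comparison of genotypes asks whether that differs without CBFB.

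The annotated starts show the tract in 7 of the 9 measured hosts. In GENCODE release 29 (GRCh38), transcript starts were searched on the transcript's own strand for a first base C followed without a break by at least 4 pyrimidines (C or T). At least 1 transcript of 77.8% of the hosts (7 of 9) began this way, against 6.58% of all annotated genes and 15.9% of the genes tested. The hosts had a median of 17 annotated transcripts and the genes tested a median of 6, so the hosts had more starts that could match. The first 30 bases of the matching start shared by most transcripts are shown for 6 hosts, because these starts are what sets the TOP class apart. Capitals mark the pyrimidine tract.
GAS5: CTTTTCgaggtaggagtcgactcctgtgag
ZFAS1: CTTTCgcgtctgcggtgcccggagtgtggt
SNHG1: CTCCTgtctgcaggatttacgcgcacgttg
SNHG5: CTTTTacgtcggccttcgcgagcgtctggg
SNHG12: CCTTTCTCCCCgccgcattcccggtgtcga
SNHG16: CTTTTCgaggtcggccgcgtggctggaaga
The GAS5 start is on chromosome 1 at base 173867989 on the minus strand was shared by 6 of its 29 transcripts, and lies 1056 bases downstream of the RefSeq start. The start of ZFAS1 is on chromosome 20 at base 49278642 on the plus strand, that of SNHG5 on chromosome 6 at base 85678733 on the minus strand, and that of SNHG12 on chromosome 1 at base 28581873 on the minus strand. These 3 are also the RefSeq starts of their genes, and the SNHG16 start, at base 76557769 of chromosome 17 on the plus strand, lies 5 bases downstream of the RefSeq one. The SNHG1 tract is different, since it opens only 1 of 25 transcripts, at base 62855479 of chromosome 11 on the minus strand, 406 bases downstream of the RefSeq start. SNHG6 had a tract of 7 bases in 3 of its 5 transcripts. No start of SNHG14 or EPB41L4A-AS1 matched. Among the other lists of hosts, a matching start was found in 65% of 40 protein-coding snoRNA hosts and in 42.9% of 14 other noncoding ones. The libraries do not show which start was used in these cells.

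In GRCh38 the genes occupy chr1:173863900-173868882 (GAS5), chr20:49278178-49295738 (ZFAS1), chr11:62851988-62855914 (SNHG1), chr6:85660950-85678748 (SNHG5), chr1:28578538-28583132 (SNHG12), chr15:24978583-25419462 (SNHG14), chr17:76557766-76565348 (SNHG16) and chr5:112160526-112164276 (EPB41L4A-AS1). The effective lengths the authors' quantification gave averaged 224 bases for SNHG6 and 253.2 for SNHG5, between 425.3 and 767.1 bases for GAS5, SNHG12, EPB41L4A-AS1, ZFAS1 and SNHG1, 1859.5 for SNHG16 and 4066 for SNHG14. Their snoRNAs include the SNORD12 group in ZFAS1, SNORD25 to SNORD28 among others in SNHG1, SNORD50B in SNHG5, SNORD87 in SNHG6, SNORD1A to SNORD1C in SNHG16 and SNORA13 in EPB41L4A-AS1. Every such snoRNA gene that had a row of its own was listed at 0 counts in all 12 libraries (3 of them in ZFAS1 and 71 in SNHG14). The 7 in SNHG1, the 1 in SNHG5 and some of those in SNHG12, SNHG14 and SNHG16 had no row, and whether their reads were counted to the host cannot be told from these files. The sample labels name an mRNA library kit, and short snoRNAs without a poly-A tail are not the target of such a kit. The authors' RNA-seq methods instead describe removal of ribosomal RNA and size selection. Which of these applied to the fractions cannot be told here, and the reason for the 0 counts was not tested. Several hosts overlap another gene on the opposite strand, among them ZNFX1 at ZFAS1 with 5354 counts over the 12 libraries and TRNAU1AP at SNHG12 with 20395. The strand setting of the counting is not stated, and reads of such pairs cannot be told apart from these files. SNHG14 also overlaps genes on its own strand, among them AC124312.1 with 31872 counts and SNRPN with 5647. Whether reads of these were counted to SNHG14 cannot be told either.

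Library totals lay between 41050300 and 63886710 counts. In CBFB_KO free, 71.56% and 87.22% of counts were mitochondrially encoded RNA, against 1.26 to 20.81% elsewhere, which left 13568123 and 5247853 other counts there against 43279838 or more in every other library. The CBFB_KO poly libraries were nearly alike, with a mean chi-square per gene of 2.255 between them against 128.3 to 957.1 in the other conditions, where sampling noise alone gives about 1. CBFB itself read 5.37 and 12.6 CPM in the WT free libraries, 8.03 and 6.2 in mono and 5.72 and 6.84 in poly, against 11.3 and 14.1, 4.79 and 3.89, and 3.59 and 4.01 in the libraries labelled CBFB_KO. It was not called between genotypes in any fraction (log2 change 0.49 ± 0.43 SE in free, −0.71 ± 0.43 in mono and −0.72 ± 0.43 in poly), and since where the edit lies in the transcript was not used here, this RNA level does not check the labels. All 10 basal mammary epithelial markers were present, summing to between 1753 and 7703 CPM, whereas 5 leukocyte markers summed to at most 24 CPM, nearly all of it CD14, 2 endothelial ones to at most 0.21, 5 fibroblast ones to at most 6.1 and 5 neuronal ones to at most 13.4. PTPRC, CDH5, COL1A2 and COL3A1 were at 0 in every library. In bulk RNA, fewer cells of a type and less RNA per cell cannot be told apart.

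Per length, GAS5 and SNHG5 were the most abundant of these RNAs. Levels between genes are given as nuclear TPM, the deposited TPM (length-corrected transcript shares) rescaled to genes outside the mitochondrial genome. GAS5, named for its accumulation in growth-arrested cells, had 3988 ± 285 nuclear TPM in the WT free fraction, 2467 ± 137 in mono and 1028 ± 39.9 in poly (SD, n = 2 throughout). Among genes outside the mitochondrial genome it ranked 47th and 53rd in the WT free libraries and 166th and 159th in the WT poly libraries. SNHG5 had 3897 ± 1450, 3692 ± 595 and 634.6 ± 167 nuclear TPM in the same fractions, so it differed from GAS5 by less than its spread in free and stood above it in mono.
ZFAS1 and SNHG6 followed, with 828.7 ± 86.6 and 1017 ± 54.9 nuclear TPM in WT mono. SNHG1 had 304.1 ± 14.9, EPB41L4A-AS1 230.3 ± 8.29, SNHG16 135.5 ± 30.2 and SNHG12 81.37 ± 0.226 nuclear TPM in WT mono. In WT free, ZFAS1, SNHG6 and SNHG1 overlapped in their SD ranges, and SNHG12 at 279.4 ± 12.9 lay just above EPB41L4A-AS1 at 260 ± 5.86. SNHG14, the long host of the imprinted Prader-Willi region known mainly from neurons, stayed at 0.3026 to 3.125 nuclear TPM in the 6 condition means, and its counts were 36 to 346 per library. Together, the 9 hosts took 0.586% and 0.728% of all counts outside the mitochondrial genome in WT free, 0.526% and 0.646% in WT mono, and 0.143% and 0.148% in WT poly. In CBFB_KO these shares were 0.254% and 0.246%, 0.469% and 0.545%, and 0.161% and 0.158%. The share was thus low in both poly pairs, and in the free pair it was lower in CBFB_KO than in WT.

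Levels between libraries are given as CPM, library-scaled counts after edgeR's TMM normalization, which expresses each gene relative to the bulk of genes in its own library. They say nothing of how much RNA a fraction held, so they do not add up to a distribution over the gradient. The plot of levels by fraction gives every library.

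**Figure D1:**
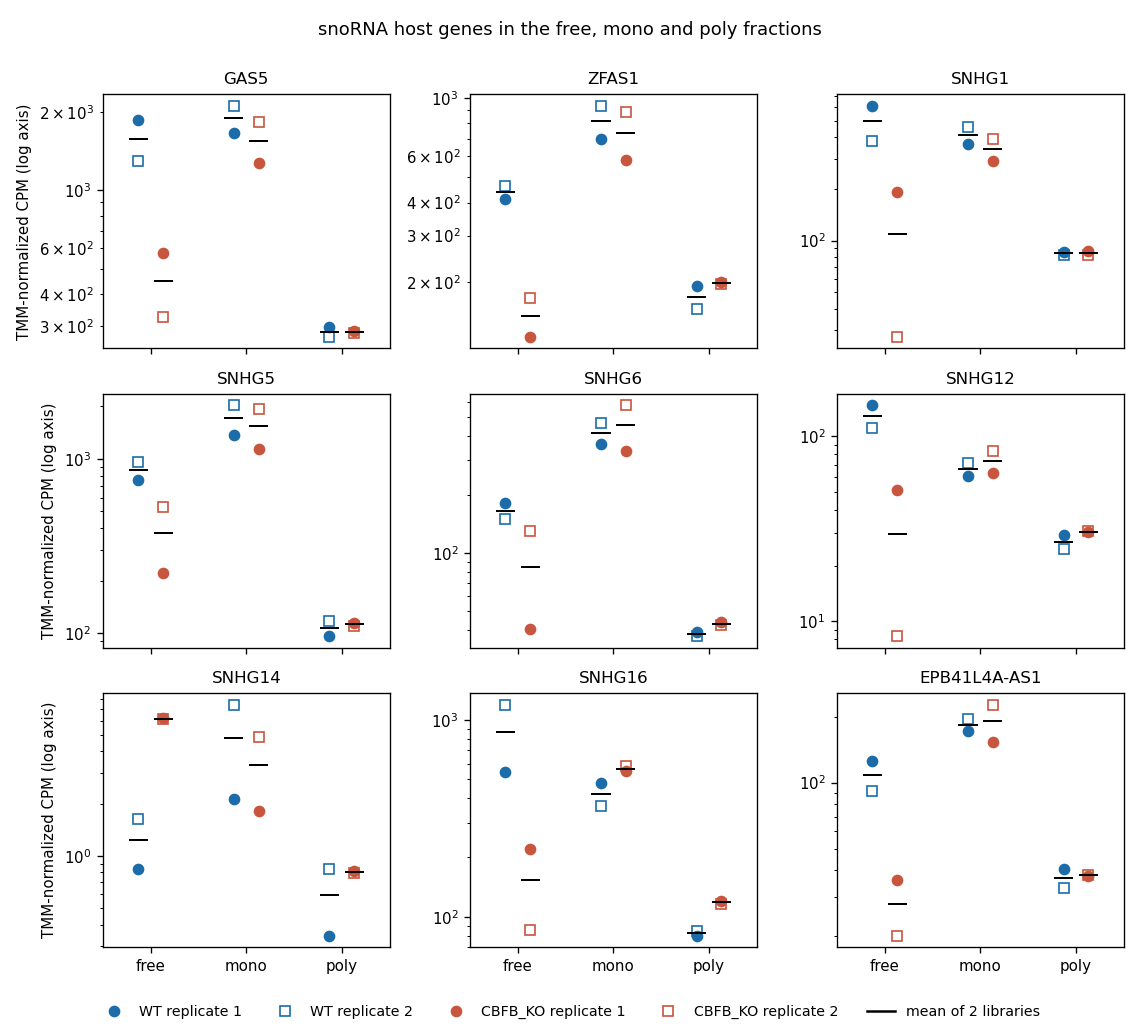
Level of each of the 9 measured snoRNA host genes in the free, mono and poly fractions, in TMM-normalized CPM on a log axis that differs between panels. Points are single libraries of WT (blue) and CBFB_KO (red), filled for replicate 1 and open for replicate 2, and black lines are means of 2; apart from SNHG14, the CBFB_KO free points lie below the WT free points and the 4 poly points of each of these genes lie close together.

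The WT hosts were low in the polyribosomal fraction and high in the monoribosomal one. SNHG5 had 1376.5 and 2029.6 CPM in WT mono and 96.08 and 118.3 CPM in WT poly. Both mono libraries stood far above both poly libraries, and the change from mono to poly was −3.99 ± 0.52 on the log2 scale (SE), or 15.89-fold lower, with adjusted p = 0.00313 (quasi-likelihood test of edgeR, adjusted after Benjamini and Hochberg over 16275 genes). SNHG6, the host of SNORD87, had 364.1 and 468.3 CPM in WT mono and 39.38 and 37.25 in WT poly, a fall of 10.86-fold (log2 −3.44 ± 0.56). GAS5 read 1664.5 and 2111.6 CPM in WT mono and 299.3 and 273.4 in WT poly, 6.59-fold lower (log2 −2.72 ± 0.42). ZFAS1, which is transcribed from the promoter region of ZNFX1 on the opposite strand, had 694.7 and 932.3 CPM in WT mono and 192.6 and 157.6 in WT poly, a fall of 4.65-fold (log2 −2.22 ± 0.39). In none of these 4 did the mono and poly libraries overlap.
The remaining hosts fell less or from lower levels. SNHG16 had 475.9 and 365.4 CPM in WT mono against 80.06 and 84.32 in WT poly, and SNHG1 had 365.7 and 458.2 against 85.92 and 82.4. EPB41L4A-AS1 had 171.6 and 194.3 CPM in WT mono against 40.33 and 32.93 in WT poly. Those 3 fell by 5.12-fold, 4.89-fold and 4.99-fold. SNHG14 fell too, by 8.08-fold, at 2.128 and 7.453 CPM against 0.345 and 0.838. In nuclear TPM its log2 ratio of poly over mono was only −0.78, against −3.02 in CPM. SNHG12 was the exception, at 61.28 and 71.45 CPM in mono and 29.27 and 24.58 in poly, which did not overlap. Its log2 change of −1.30 ± 0.63 did not pass (edgeR adjusted p = 0.167). That standard error draws on the spread in all 6 conditions. The CBFB_KO free libraries of SNHG12 were far apart, at 51.22 and 8.293 CPM. In all, 8 of 9 hosts fell and 0 rose, where 9.68% of all genes tested fell and 11% rose. The median log2 change of the hosts was −2.36, and 7.6% of all genes had a lower value. DESeq2 also called 8 hosts lower.
The count of calls depended on both WT gradients, since 2 hosts were called lower without WT replicate 1, where 313 of 17075 genes were, and 0 without WT replicate 2, where 0 of 17023 genes were called in either direction. Meanwhile all 9 log2 changes were below 0 in each of these fits. With library size alone, 4 hosts were called lower, where 270 of 16275 genes were. Measured in nuclear TPM, the median over genes was 1.05 higher (log2) in WT poly than in WT mono, 8 of the 9 hosts were lower in poly, SNHG12 was higher by 0.18, and all 9 lay below the median of all genes.

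The gene lists set beside the hosts differed in their poly to mono changes. Of 16 other noncoding snoRNA hosts, 14 were tested, and 9 fell from WT mono to WT poly with a median log2 change of −2.13. SNHG25, SNHG19 and SNHG29 fell most, with log2 changes of −4.27 ± 0.52, −4.12 ± 0.46 and −3.18 ± 0.55. Protein-coding snoRNA hosts were mixed: of 41 rows tested, 20 fell and 6 rose, with a median of −1.36. TPT1, itself a known TOP mRNA (log2 −3.54 ± 0.50), and the ribosomal protein mRNAs RPL17 (−2.83 ± 0.63) and RPL23A (−2.69 ± 0.40) fell most, and HSPA9 (3.90 ± 0.60), NCL, which encodes nucleolin (2.51 ± 0.45), and the chaperonin subunit CCT6A (2.12 ± 0.47) rose most. Among 10 mRNAs of snoRNP core proteins, which bind and stabilise the snoRNAs, NOLC1 and DKC1 rose, NOP10, NHP2 and SNU13 fell, and the median was 0.11.
RNA length moved with these changes. Genes of 200 to 800 bases effective length, a range that holds 7 of the 9 hosts, had a median WT poly to mono change of −1.49 over 2751 genes, and 27% of them fell, while the 7 hosts had a median of −2.32. The 785 long noncoding genes in that range had a median of −1.84, with 18.6% called lower, and the 1342 protein-coding ones a median of −1.34, with 36.7% called lower. The part of length in the hosts' change was not tested.

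**Figure D2:**
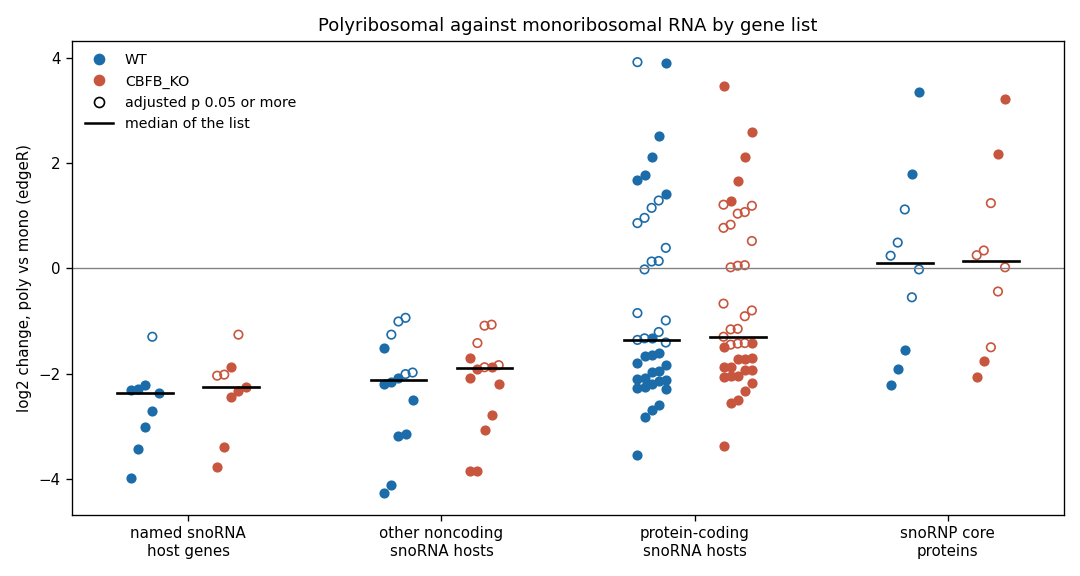
Log2 change from the mono to the poly fraction (edgeR, vertical axis) for each gene of 4 lists, in WT (blue) and CBFB_KO (red); filled points have an adjusted p under 0.05 and black lines are list medians. All 9 measured hosts lie below 0, with medians of −2.36 and −2.26, while the protein-coding hosts and snoRNP proteins lie on both sides of 0.

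In CBFB_KO cells the hosts were also low in poly against mono. GAS5 had 1277.3 and 1824 CPM in CBFB_KO mono and 288.7 and 283.6 in CBFB_KO poly. SNHG5 had 1137.3 and 1932.3 against 115 and 110.7, and SNHG6 had 335.5 and 576.9 against 43.92 and 42.59. No mono library of these 3 overlapped a poly library. GAS5, ZFAS1, SNHG5, SNHG6, SNHG16 and EPB41L4A-AS1 fell, with log2 changes from −3.77 ± 0.52 (SNHG5) to −1.88 ± 0.39 (ZFAS1) and adjusted p from 0.00571 to 0.015 by edgeR. SNHG1, SNHG12 and SNHG14 had log2 changes of −2.02 ± 0.69, −1.26 ± 0.63 and −2.04 ± 0.73 and did not pass. Thus 6 of 9 fell, where 8.66% of all genes fell and 8.2% rose, and all 6 were among the 8 that fell in WT. The median of the hosts was −2.26. Other noncoding hosts had 9 of 14 lower and a median of −1.9, and protein-coding hosts had 17 of 41 lower, 5 higher and a median of −1.3. With the nearly alike CBFB_KO poly pair counted as 1 sample, or without either CBFB_KO replicate, 0 hosts were called by edgeR, and at most 1 gene in all was called in each of these fits, while all 9 log2 changes stayed below 0. In nuclear TPM 7 of 9 were below 0 and SNHG12 and SNHG14 above it (log2 0.22 and 0.14), against a median of 0.87 over all genes.
The fall from mono to poly was not called different between the genotypes for any host. The differences, CBFB_KO minus WT, ran from −0.01 ± 0.58 (EPB41L4A-AS1) to 0.97 (SNHG14) with a median of 0.22. By edgeR 0 of 9 hosts passed, 0 had an unadjusted p under 0.05, and DESeq2 called 0. Over all genes 0% were called higher and 0% lower by edgeR, with 164 at an unadjusted p under 0.05. The standard errors of these differences were 0.53 (ZFAS1) or more on the log2 scale. Even the largest difference, 0.97 for SNHG14, had an unadjusted p of 0.349 by edgeR. Differences of the size measured here could therefore not be resolved.

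Between the free and mono fractions the WT hosts shared no direction. SNHG16 had 545.5 and 1196.9 CPM in WT free, GAS5 1856.2 and 1291.1, and SNHG12 146.9 and 110.4. ZFAS1 had 414 and 460.7 CPM in WT free, below its mono values, and SNHG6 had 179.9 and 148.9, also below. From free to mono, 0 of 9 hosts were called in either direction by edgeR or by DESeq2, where 5.55% of all genes rose and 1.43% fell, and 3 hosts (ZFAS1, SNHG6 and SNHG14) had an unadjusted p under 0.05. The log2 changes ran from −1.05 ± 0.50 (SNHG16) to 1.96 ± 0.72 (SNHG14).
From free to poly in WT, 8 of 9 hosts fell, all but SNHG14, where 7.99% of all genes fell and 14% rose. SNHG16 fell by 10.6-fold (log2 −3.41 ± 0.54, edgeR adjusted p = 0.00249), but by 6.5-fold (log2 −2.70) without WT replicate 2, where SNHG5 had −2.92. SNHG5 fell by 8.05-fold, SNHG1 by 5.9-fold, GAS5 by 5.5-fold, SNHG12 by 4.78-fold, SNHG6 by 4.29-fold, EPB41L4A-AS1 by 2.95-fold and ZFAS1 by 2.5-fold. The free and poly libraries of these 8 did not overlap. The median of the hosts was −2.26 and that of all genes 0.08. Without WT replicate 1 or WT replicate 2, 1 and 3 hosts were called lower, and so were 330 of 17075 and 752 of 17023 genes. Among the other noncoding hosts 10 of 14 fell (median −2.46), led by SNHG3 (log2 −5.66 ± 1.10). Protein-coding hosts had 6 higher and 5 lower of 41 and a median of −0.36.

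From free to poly in CBFB_KO, 2 hosts passed the test. ZFAS1 had 123.7 and 174.1 CPM in CBFB_KO free and 200.1 and 196.8 in CBFB_KO poly. EPB41L4A-AS1 had 36.1 and 20.03 against 37.53 and 37.84, and GAS5 had 573 and 326.4 against 288.7 and 283.6. For ZFAS1 and EPB41L4A-AS1 both free libraries lay below both poly libraries, and for GAS5 they lay above. SNHG5 (log2 −1.73 ± 0.48, and −0.93 without CBFB_KO replicate 2) and SNHG14 (−2.94 ± 0.75) fell, and the other 7 hosts had log2 changes between −0.97 and 0.42 that did not pass. So 2 of 9 fell and 0 rose, where 16.7% of all genes fell and 14.6% rose. The signs here depended on the scaling. With library size alone, where the median of all genes rose by 2.05, 4 hosts were called higher and 0 lower. Of all 16275 genes, 7669 were called higher and 566 lower in that fit. GAS5, SNHG1, SNHG5, SNHG6 and SNHG16 turned positive there. In nuclear TPM 7 of 9 hosts were lower in poly than in free, against a median log2 ratio of 0.05 over all genes.
From free to mono in CBFB_KO, 6 of 9 hosts rose, where 20.3% of all genes rose and 23% fell. EPB41L4A-AS1 rose by 6.76-fold (log2 2.76 ± 0.44, edgeR adjusted p = 0.000523), SNHG6 by 5.37-fold, ZFAS1 by 4.92-fold, SNHG5 by 4.09-fold, SNHG16 by 3.69-fold and GAS5 by 3.45-fold. With mitochondrial genes left out and no TMM factors, 4 hosts were called higher, where 1665 of 16889 genes were. The median of all genes was −0.92 in that fit. The number of hosts called higher moved when a CBFB_KO replicate was left out, and so did the number of all genes. Without CBFB_KO replicate 1 the folds were 11.47 (EPB41L4A-AS1), 6.87 (SNHG16) and 5.66 (GAS5), and without CBFB_KO replicate 2 they were 4.26 (EPB41L4A-AS1), 8.28 (SNHG6) and 2.23 (GAS5). The median of all genes in this comparison was 0.06, and 45% of the genes of 200 to 800 bases rose. Other noncoding hosts had 10 of 14 higher and protein-coding ones 23 of 41 higher and 8 lower.

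**Figure D3:**
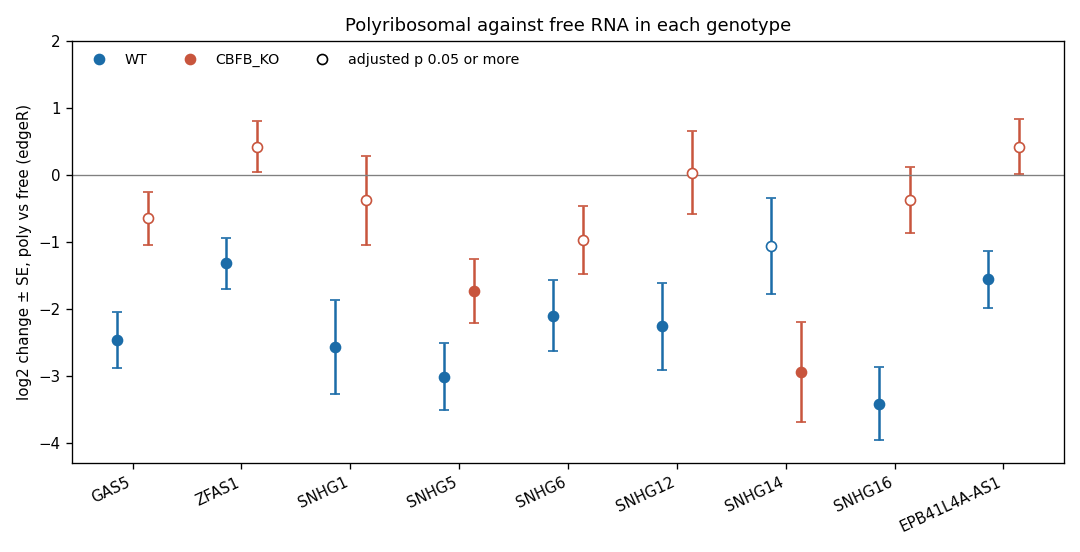
Log2 change from the free to the poly fraction ± SE (edgeR, 2 libraries per condition) for each host gene in WT (blue) and CBFB_KO (red); filled points have an adjusted p under 0.05. The CBFB_KO point lies above the WT point for every host except SNHG14.

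Compared directly, 7 hosts passed between CBFB_KO and WT in the free fraction. GAS5 had 573 and 326.4 CPM in CBFB_KO free and 1856.2 and 1291.1 in WT free. SNHG16 had 220.5 and 85.66 against 545.5 and 1196.9, and EPB41L4A-AS1 had 36.1 and 20.03 against 125.1 and 91.04. In each of these 3 both CBFB_KO libraries lay below both WT libraries. SNHG16 was 5.69-fold lower (log2 −2.51 ± 0.52, edgeR adjusted p = 0.0046), EPB41L4A-AS1 3.84-fold, GAS5 3.5-fold and ZFAS1 2.94-fold lower. SNHG1 (4.52-fold lower) and SNHG12 (4.3-fold lower) passed as well, but their CBFB_KO free libraries were far apart, at 192.2 and 27.41 CPM for SNHG1 and 51.22 and 8.293 for SNHG12. Without CBFB_KO replicate 1 or 2, SNHG1 was 18.13-fold or 2.57-fold lower, SNHG12 15.56-fold or 2.5-fold lower, and the values without replicate 2 did not pass. SNHG16 was 10.2-fold lower without CBFB_KO replicate 1 and 3.76-fold lower without WT replicate 2. For SNHG5 and SNHG6 the log2 changes were −1.20 ± 0.47 and −0.95 ± 0.51 and did not pass (adjusted p = 0.058 and 0.152). SNHG14 was higher in CBFB_KO free by 5.01-fold (log2 2.33 ± 0.73), on 146 and 61 counts in the CBFB_KO libraries. In total 6 of 9 hosts were lower and 1 higher, where 18.1% of all genes were lower and 24.2% higher.
The hosts' median was −1.81 and that of all genes 0.04. In the settings tried, the hosts' median lay between 1.57 and 2.18 below the median of all genes, and 8 of 9 hosts lay below it each time. The number of hosts called lower fell to between 1 and 5 when any 1 replicate was left out, with 1 without WT replicate 1 (1016 of 17075 genes) and 3 without CBFB_KO replicate 2 (157 of 17587 genes).
Other RNAs moved in the same libraries. All 14 tested other noncoding hosts were lower in CBFB_KO free, with a median of −2.43, led by SNHG20 (log2 −2.95 ± 0.62) and DANCR (−2.80 ± 0.43). Protein-coding hosts had 15 of 41 lower and 5 higher, among them RPS3 (−2.47 ± 0.47) and RPS2 (−2.11 ± 0.50) lower and IPO7 (3.46 ± 0.51) higher. Of the genes of 200 to 800 bases, 29.2% were lower, with a median of −1.14. GAPDH was lower by 2.05 ± 0.59 (log2), whereas the nuclear RNAs MALAT1, NEAT1 and TUG1 were higher, by 3.42 ± 0.77, 2.80 ± 0.65 and 3.11 ± 0.79. The CBFB_KO free libraries are also those with most mitochondrial RNA and the fewest other counts, as given above, and the part of these in the hosts' change was not tested.

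**Figure D4:**
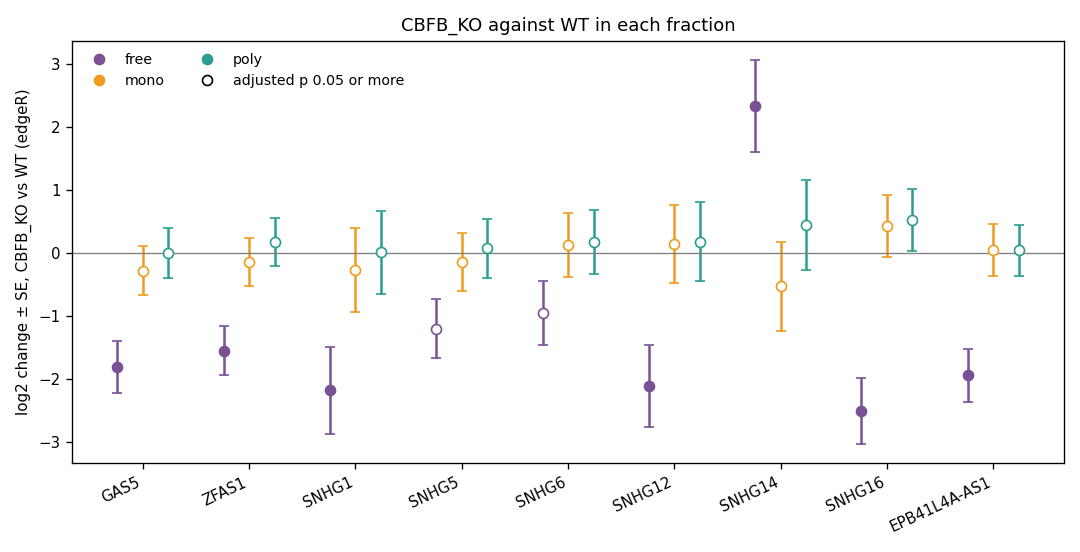
Log2 change of CBFB_KO against WT ± SE (edgeR, 2 libraries per condition) for each host gene in the free (purple), mono (orange) and poly (green) fractions; filled points have an adjusted p under 0.05. The filled points are all free-fraction changes, 6 below 0 and SNHG14 above, and the mono and poly points lie between −0.53 and 0.52.

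In the mono and poly fractions no host was called different between genotypes. In the mono fraction the hosts' log2 changes ran from −0.53 ± 0.70 (SNHG14) to 0.43 ± 0.49 (SNHG16), with a median of −0.15, and in the poly fraction from 0.00 ± 0.39 (GAS5) to 0.52 ± 0.49 (SNHG16), with a median of 0.17. By edgeR 0 of 9 hosts passed in either fraction, 0 had an unadjusted p under 0.05 in either, and DESeq2 called 0. Few genes passed at all, 0.0307% higher and 0.117% lower in mono, and 0.0246% higher and 0.166% lower in poly. SNHG16, with the highest value in both fractions, was at 547.3 and 583.1 CPM in CBFB_KO mono and 119.6 and 116.6 in CBFB_KO poly, and in each fraction its CBFB_KO libraries lay above both WT libraries. The other lists of hosts likewise had 0 genes called in mono and poly by edgeR.
The change from free to poly was called different between genotypes for 4 hosts, all higher in CBFB_KO. SNHG16 differed by 3.03 ± 0.71 (log2, edgeR adjusted p = 0.0154; 3.85 without CBFB_KO replicate 1), EPB41L4A-AS1 by 1.98 ± 0.58, GAS5 by 1.81 ± 0.56 and ZFAS1 by 1.74 ± 0.54. SNHG1 and SNHG12 had differences of 2.18 ± 0.95 and 2.29 ± 0.89 that did not pass (adjusted p = 0.116 and 0.0896). Of all genes 4.1% were called higher and 14.3% lower. This contrast shares the free libraries with the comparison above, so the same values enter both. The 4 calls became 0 with the CBFB_KO poly pair counted as 1 sample, without WT replicate 2 and without CBFB_KO replicate 2, where 26 of 17678, 412 of 17023 and 2 of 17587 genes were called higher. They became 1 with each gradient fitted as a block, where 453 of 16275 genes were called higher. With library size alone they became 7, where 3003 of 16275 genes were called higher and the median of all genes rose by 1.54. Other noncoding hosts had 7 of 14 higher and 0 lower, and protein-coding hosts 5 of 41 higher and 5 lower.

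The mRNAs of factors that act on host RNAs did not follow one direction. Of 14 nonsense-mediated decay factors, 4 rose from WT mono to WT poly, where 11% of all genes rose and 9.68% fell. EIF4A3 (log2 2.54 ± 0.39), UPF1 (2.00 ± 0.47) and SMG8 (1.76 ± 0.47) rose most, while RBM8A, a core subunit of the exon junction complex, fell (−1.33 ± 0.38). In the free fraction 5 of the 14 were higher in CBFB_KO, where 24.2% of all genes were higher and 18.1% lower. Among the 5 were SMG1 (4.57 ± 0.75) and SMG6 (4.27 ± 0.46), and SMG9 was lower (−1.95 ± 0.61). Of 11 regulators of TOP mRNAs, LARP1, which binds the TOP start, and RPTOR rose from WT mono to WT poly (1.94 ± 0.53 and 1.08 ± 0.34), and EIF4E and EIF4EBP1 fell (−2.60 ± 0.52 and −1.61 ± 0.45). In CBFB_KO free 5 of the 11 were higher than in WT, against the same 24.2% of all genes. TIAL1, RPS6KB1 and MTOR had the largest rises (5.34 ± 0.53, 4.28 ± 1.22 and 4.01 ± 0.83), and EIF4EBP1 was lower (−1.57 ± 0.45). In mono and in poly 0 genes of both lists were called between genotypes by edgeR. Of 3 nuclear-retained RNAs tested, NEAT1 fell from WT mono to WT poly (−3.21 ± 0.66), and MALAT1 and TUG1 had log2 changes of −0.51 ± 0.75 and 0.84 ± 0.74. Of the reference mRNAs, ACTB rose (1.57 ± 0.39), and GAPDH and CBFB had log2 changes of 0.71 ± 0.57 and −0.18 ± 0.43.

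The profile of the hosts over the libraries was also shared beyond the hosts. With the 8 hosts of at least 10 CPM on average, the correlation of a host's log2 CPM with the mean of the other 7 ran from 0.783 (SNHG12) to 0.986 (GAS5) over the 12 libraries. Of 5970 other genes at that level, those most like the hosts' mean were MPPE1 (Pearson r 0.988), KRT10-AS1 (0.987), CHD2 (0.985), TRIM52-AS1 (0.985) and CCNB1IP1 (0.985). Their log2 changes from WT mono to WT poly were −2.07, −3.32, −2.37, −3.09 and −2.89. The points of these correlations are libraries of 6 conditions that share fraction, genotype and depth, so r is a description only.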

How the data were processed

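The 12 libraries were quantified by the authors with RSEM after Trimmomatic and STAR against hg19, as the submitters' processing notes name them without versions. The deposited expected counts are the authors' RSEM estimates of reads per gene, without normalization. Of all values in a library, zeros included, 5.45 to 10.09% are not whole. TPM as deposited came from the same RSEM runs and corrects for effective length and for library size. Hand-typed notes beside 2 of the tables were not used.

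Rounded expected counts entered the quasi-likelihood model of edgeR 4.0.16 under R 4.3.3, with limma 3.58.1 loaded, with TMM, filterByExpr and 1 mean for each of 6 conditions, giving 16275 genes and 6 residual degrees of freedom. Calls were made at 0.05 after Benjamini-Hochberg adjustment over all genes. DESeq2 1.42.0, other scalings, a replicate block and left-out replicates were alternatives. Fits were tested on simulated data. Condition and replicate came from the sample titles. Nuclear TPM leaves out 37 mitochondrial genes. Symbols came from a gene table for 49995 genes and through transcript identifiers for 1495. Starts were read from GENCODE release 29 (GRCh38), and RefSeq starts from the same build. Python 3.11.15, pandas 2.3.3 and matplotlib 3.10.9 were used.

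The hosts and the lists (other noncoding hosts, protein-coding hosts, snoRNP core, nonsense-mediated decay factors, TOP regulators, nuclear-retained RNAs, reference mRNAs, cell type markers) were chosen with earlier results of these data known. Named were every host, of each list up to 3 genes with the largest rise and 3 with the largest fall past the threshold, all of lists of 5 or fewer, CBFB, GAPDH and ACTB, and the 5 genes most like the hosts. A gene that this rule names is not reported here. Each standard error was derived from the log2 value and its quasi-likelihood F.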

Additional observations from a re-analysis of the deposited data

Results flagged for a closer look

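For 4 host genes the change from the free to the poly fraction differed between CBFB_KO and WT by the interaction term of the edgeR fit. The difference, CBFB_KO minus WT on the log2 scale, was 3.03 for SNHG16, 1.98 for EPB41L4A-AS1, 1.81 for GAS5 and 1.74 for ZFAS1, and the adjusted p were 0.0154, 0.0373, 0.0454 and 0.044. Over the alternatives the adjusted p of SNHG16 ran from 5.52e-05 to 0.147, that of EPB41L4A-AS1 from 0.00418 to 0.267, that of GAS5 from 0.00953 to 0.278 and that of ZFAS1 from 0.01 to 0.167. All 4 rest on the CBFB_KO free libraries, in which SNHG16 had 220.5 and 85.66 CPM, EPB41L4A-AS1 36.1 and 20.03, GAS5 573 and 326.4 and ZFAS1 123.7 and 174.1. In nuclear TPM the log2 ratios of poly over free in WT and CBFB_KO were −2.87 and −0.84 for SNHG16 and −1.09 and 0.97 for EPB41L4A-AS1. They were −1.96 and −1.09 for GAS5 and −0.83 and 0.08 for ZFAS1. The genotypes thus lay closer together than in CPM for SNHG16, GAS5 and ZFAS1, but not for EPB41L4A-AS1.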

How the results depend on the processing

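Of 1323 refitted log2 values of single hosts, 1119 kept direction and side of the threshold, 116 lost significance, 36 gained it and 52 changed sign. The causes were not tested. From mono to poly, all 9 hosts lay below 0 and below the median of all genes in every edgeR and DESeq2 fit tried, in both genotypes, and nuclear TPM turned SNHG12 (and SNHG14 in CBFB_KO) above 0. The 3 settings named as added (mitochondrial genes left out with no TMM factors, the CBFB_KO free libraries left out, nuclear TPM) were chosen after seeing the data.

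With library size alone, the hosts called lower were 4 in WT poly against free, 4 in WT poly against mono and 2 in CBFB_KO poly against mono. Of all 16275 genes, 347, 270 and 161 were called lower in these comparisons. In CBFB_KO poly against free 4 were called higher and 0 lower, where 7669 of 16275 genes were higher and 566 lower. Log2 changes there were 1.45 (GAS5), 1.52 (SNHG1), 0.71 (SNHG5), 1.54 (SNHG6) and 1.65 (SNHG16). CBFB_KO against WT in free had 0 hosts higher, where 1281 of 16275 genes were. The genotype difference of poly against free had 7 hosts higher, where 3003 of 16275 genes were. Signs also turned for GAS5 in WT mono against free (−0.07), SNHG14 in CBFB_KO mono against free (0.30), EPB41L4A-AS1 between genotypes in mono (−0.03) and in the difference of poly against mono (0.09), and GAS5 between genotypes in poly (0.01). With mitochondrial genes left out and no TMM factors the last set read −0.22 (GAS5, WT mono against free), −0.04 and 0.10 (EPB41L4A-AS1) and 0.01 (GAS5, poly). SNHG12 in CBFB_KO poly against free was −0.02 by DESeq2 and −0.03 with its size factors, and SNHG1 between genotypes in poly −0.01 by both. GAS5 between genotypes in poly was 0.00 without the filter on low counts. Without the CBFB_KO free libraries 1 host was higher in WT mono than free, where 1408 of 16111 genes were. With the CBFB_KO poly pair as 1 sample, 5 hosts were lower in WT poly than free, 0 in CBFB_KO poly than free, 0 in CBFB_KO poly than mono, 0 differed between genotypes in poly against free, and GAS5 in poly was 0.00.

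Correlations of same-numbered deviations ran from −0.641 to 0.761 between conditions. With 2 replicates per condition, values of both signs do not settle whether the replicate numbers pair the samples. With the replicate block, 8 hosts were lower in WT poly than free and 8 than mono, where 1364 and 1671 of 16275 genes were. In CBFB_KO these were 2 and 7 hosts, where 2786 and 1517 genes were. In poly against free 4 hosts differed between genotypes, where 1104 genes were called higher and 2508 lower. GAS5 between genotypes in poly was 0.00. With a block for each gradient 1 host differed, where 453 of 16275 genes were called higher and 2143 lower.

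Leaving out 1 replicate moved the number of hosts called in poly against free, in poly against mono and in CBFB_KO mono against free. It also moved for CBFB_KO against WT in free and for the genotype difference of poly against free. The number of all genes called moved in the same fits, so the host counts are not listed here. A lone library in a condition was assumed to vary like the other groups. Log2 values whose sign turned ranged as follows. In WT mono against free, GAS5 ran from −0.25 to 0.72 and SNHG1 from −0.83 to 0.27. In CBFB_KO poly against free, SNHG1 ran from −1.13 to 1.61, SNHG6 from −1.58 to 0.13, SNHG12 from −0.74 to 1.91 and SNHG16 from −0.87 to 0.47. Between genotypes in mono, ZFAS1 ran from −0.49 to 0.13, SNHG5 from −0.58 to 0.19, SNHG6 from −0.31 to 0.48, SNHG12 from −0.08 to 0.33, SNHG14 from −1.41 to 0.57 and EPB41L4A-AS1 from −0.26 to 0.31. Between genotypes in poly, GAS5 ran from −0.03 to 0.06, SNHG1 from −0.04 to 0.05, SNHG5 from −0.07 to 0.27, SNHG14 from −0.07 to 1.25 and EPB41L4A-AS1 from −0.06 to 0.19. In the genotype difference of poly against mono, SNHG5 ran from −0.14 to 0.69, SNHG6 from −0.32 to 0.51, SNHG12 from −0.14 to 0.27, SNHG16 from −0.15 to 0.39 and EPB41L4A-AS1 from −0.27 to 0.29. Depth limits SNHG14 most, at 36 to 346 counts.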
